A study of Homo sapiens with 2 samples.

Results

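Chromatin accessibility near the ends of the autosomes was described in RPMI-8402 and Jurkat, established human lines of T-cell acute lymphoblastic leukaemia (T-ALL). Each line gave 1 ATAC-seq library (Tn5 transposase cuts exposed DNA and tags it for sequencing), with no treatment other than culture named in the labels. Both groups are therefore single cultured lines, and the labels name no control tissue or normal T cell. An autosomal peak was counted as an end peak when its summit lay below position 3000000, or within 3 Mb of the last peak end seen on that chromosome in either list (build hg19). The short arms of chromosomes 13, 14, 15, 21 and 22 were left out, which gave 17 short-arm and 22 long-arm ends, 39 in all. The end peaks numbered 1773 of 23629 autosomal peaks in RPMI-8402 (7.50%) and 2047 of 24437 in Jurkat (8.38%). No measured peak height or sharing entered this choice, only position.

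Chromosome ends finish in telomere repeats, next to which lie subtelomeres, patchworks of segments copied between chromosomes. Inward of these, many human chromosome ends are gene-dense, rich in G and C and replicated early in S phase, and several carry genes studied in leukaemia. The end of 9q holds NOTCH1, a receptor gene often mutated in T-ALL, and the end of 5p holds TERT, the telomerase catalytic subunit. The ends of 4q and 10q both carry arrays of the D4Z4 repeat, the end of 14q the immunoglobulin heavy chain locus and the end of 16p the alpha-globin genes. Which gene each peak lies in, its exon, intron or UTR, and its base composition were not analysed here.

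Since each line has 1 library, there is no replicate spread to set the differences against, and none of them was tested. The bracketed 95% intervals account for counting error alone and are too narrow if some fragments are PCR copies. Peaks of 1 library are not replicates, so comparisons between end peaks and the remaining autosomal peaks are descriptions as well. The sources used here do not give library totals. The caller's genome-wide background was 1.96 fragments per base in RPMI-8402 and 1.59 in Jurkat, and the weakest called summits were covered by 10 and 9 fragments. Copy number was not measured, so more copies of a chromosome end and more open chromatin per copy cannot be told apart in any comparison between the lines.

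Peaks lay closer together at the ends than elsewhere in both lines. The 117 Mb of end windows held 15.2 peaks per Mb in RPMI-8402, against 8.16 per Mb in the remaining 2677 Mb of autosomal span, a ratio of 1.86 (1.77 to 1.95, exact conditional interval). In Jurkat the ends held 17.5 peaks per Mb, against 8.36 in the remaining span, a ratio of 2.09 (1.999 to 2.19). The remaining span includes centromeres and other stretches without peaks. Among 100-kb bins with a peak of either line, the density ratio was 1.37 in RPMI-8402 and 1.54 in Jurkat. For this ratio the bins were laid from the chromosome start. In a separate layout of the end windows, from each end inward, 74.9% of 100-kb bins held a peak of either line. In the remaining span, 55.6% of bins did. Peak sequence covered 1.18% of the end windows and 0.610% of the remaining span in RPMI-8402, and 1.25% and 0.556% in Jurkat.

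The density fell inward from the ends over the first 3 Mb. RPMI-8402 had 19.3, 14.5 and 11.6 peaks per Mb at 0 to 1, 1 to 2 and 2 to 3 Mb from the end, and Jurkat had 22.03, 17.7 and 12.8. At 3 to 4 Mb the values were 11.3 and 12.6, so the limit of 3 Mb marks no step. Just inside it, at 2.5 to 3 Mb, RPMI-8402 had 217 peaks with a median width of 715 bp and Jurkat 240 with a median of 662 bp. Just outside it, at 3 to 3.5 Mb, these were 238 peaks of 731 bp and 260 of 622 bp. At 3 to 10 Mb the densities were 10.3 in RPMI-8402 and 11.04 in Jurkat, still above those of the remaining span as a whole. Of the distance classes, the outermost 100 kb were the densest in both lines, with 86 RPMI-8402 peaks (22.1 per Mb) and 98 Jurkat peaks (25.1 per Mb). The density was 17.2 per Mb in RPMI-8402 and 20.3 in Jurkat at 0.1 to 0.5 Mb, and 20.4 and 22.8 at 0.5 to 1 Mb. Long-arm distances start at a peak by construction, which raises the value of the outermost 100 kb. That they rank first is therefore not read as a trait of the ends.

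**Figure D1:**
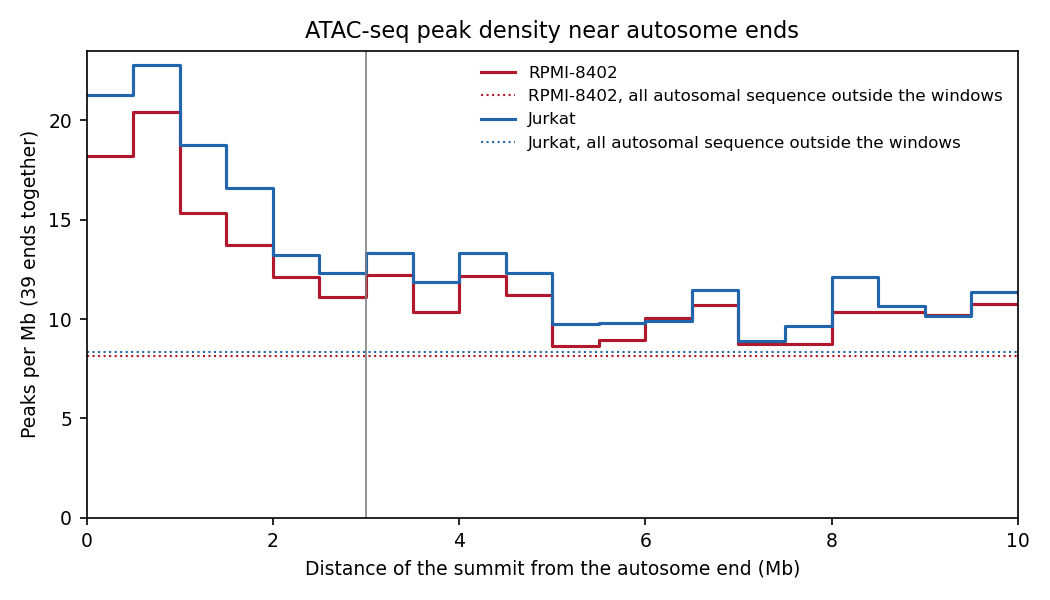
Peaks per Mb (y axis) by distance of the summit from the autosome end in steps of 0.5 Mb (x axis), summed over the 39 ends, for RPMI-8402 and Jurkat, with the 3-Mb limit as a vertical line and the density of the remaining autosomal span dotted. Both lines fall from about the first Mb to 3 Mb, and Jurkat lies above RPMI-8402 throughout the end windows.

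The ends differed widely among themselves, in a similar order in both lines. An end held from 9 to 93 RPMI-8402 peaks with a median of 44, and from 11 to 98 Jurkat peaks with a median of 47. Over the 39 ends the lines' numbers correlated with r = 0.90 (Pearson) and rho = 0.92 (Spearman), a description of sites whose peaks are mostly the same in both lists. The highest numbers over both lines were at 19p (93 RPMI-8402 and 96 Jurkat peaks), 16p (79 and 97) and 8q (76 and 98). Chromosome 19 was dense along its whole length, with 16.7 and 18.0 peaks per Mb outside its end windows, whereas chromosome 16 had 6.79 and 7.47 there.

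The fewest peaks summed over both lines were at 3p, with 9 in RPMI-8402 and 11 in Jurkat, followed by 10p (20 and 18) and 4q (21 and 18). In RPMI-8402 alone, 13q was the second lowest, with 18 peaks. The end of 3p held 3 peaks per Mb in RPMI-8402 and 3.67 in Jurkat, while the rest of chromosome 3 held 9.24 and 8.14. An end was denser than the rest of its own chromosome at 33 of 39 ends in RPMI-8402 and at 34 of 39 in Jurkat. The ends of 3p, 4q, 10p and 22q were below it in both lines, those of 6q and 9p in RPMI-8402 and that of 6p in Jurkat. Against the neighbouring 3 to 10 Mb, 28 of 39 ends were denser in RPMI-8402 and 29 of 39 in Jurkat. Short-arm windows held 14.6 and long-arm windows 15.6 RPMI-8402 peaks per Mb (ratio 0.936, 0.850 to 1.03), and 17.0 and 17.9 Jurkat peaks per Mb (ratio 0.947, 0.867 to 1.03). Both intervals include 1. Short-arm windows start at position 1 and include any unassembled telomere, and long-arm windows start at a peak.

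**Figure D2:**
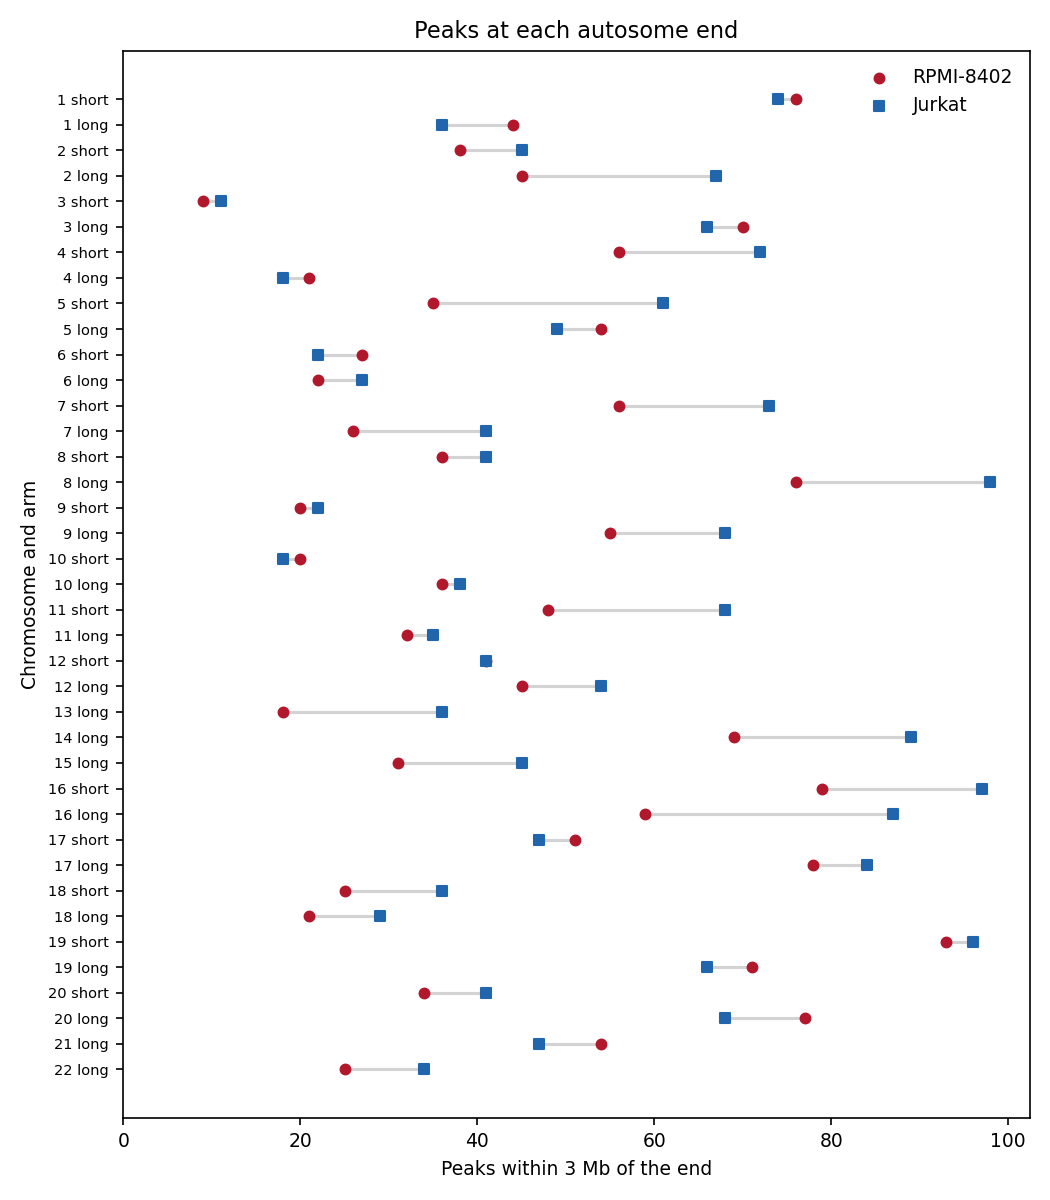
Number of peaks within 3 Mb (x axis) at each of the 39 autosome ends (y axis, chromosome and arm) in RPMI-8402 (circles) and Jurkat (squares, drawn on top, which hides the equal RPMI-8402 value at the short arm of chromosome 12). Numbers run from 9 at the short arm of chromosome 3 to 98 at the long arm of chromosome 8, and grey bars join the lines.

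End peaks were wider and higher than the remaining autosomal peaks, but less enriched over their surroundings. Their median width was 741 bp (724 to 760, order-statistic interval) in RPMI-8402, against 690 bp for the remaining peaks, and 676 bp (653 to 695) in Jurkat, against 607 bp. The summit pileup, a count of fragments over the peak's highest base, had a median of 44 at the ends and 37 elsewhere in RPMI-8402, and of 44 and 36 in Jurkat. The deposited fold enrichment went the other way, with a median of 6.96 at the ends and 7.30 elsewhere in RPMI-8402, and of 7.43 and 7.75 in Jurkat. The interquartile ranges of both sets overlapped widely for each of these measures.

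The local background under the peaks moved with the lower fold. It had a median of 5.55 fragments at end peaks and 4.18 at the remaining peaks in RPMI-8402, a ratio of 1.33, where the pileups had a ratio of 1.19. In Jurkat it was 5.43 and 3.85, a ratio of 1.41, where the pileups had a ratio of 1.22. The caller is known to take this background from the sequence around a peak, with the genome-wide value as its lower limit. That limit was reached by 4.17% of end peaks and 10.1% of the remaining peaks in RPMI-8402, and by 3.52% and 9.43% in Jurkat. Neighbouring summits were a median of 28.9 kb apart at the ends and 56.0 kb elsewhere in RPMI-8402, and 25.6 and 49.0 kb apart in Jurkat. The part of these closer neighbours in the background was not tested.

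Not every end showed these differences. The median background was above that of the rest of the same chromosome at 32 of 39 ends in RPMI-8402 and 31 of 39 in Jurkat. The median fold was below it at 25 and 28 ends, and the median width above it at 23 and 27. Over ends, the median width ran from 514 to 872 bp in RPMI-8402 and from 390 to 886 bp in Jurkat. The fold difference depended on the distance from the end and on what the ends were set against. At 0.1 to 0.5 Mb the median fold was 7.59 in RPMI-8402 and 8.18 in Jurkat, above the 7.30 and 7.75 of the remaining peaks. In the outermost 100 kb it was 7.62 and 7.39, and at 0.5 to 1 Mb it was 6.76 and 7.39. Set against peaks at 3 to 10 Mb from the same ends, the median fold of end peaks was 0.0765 higher in RPMI-8402, and in Jurkat the difference was −0.0775.

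**Figure D3:**
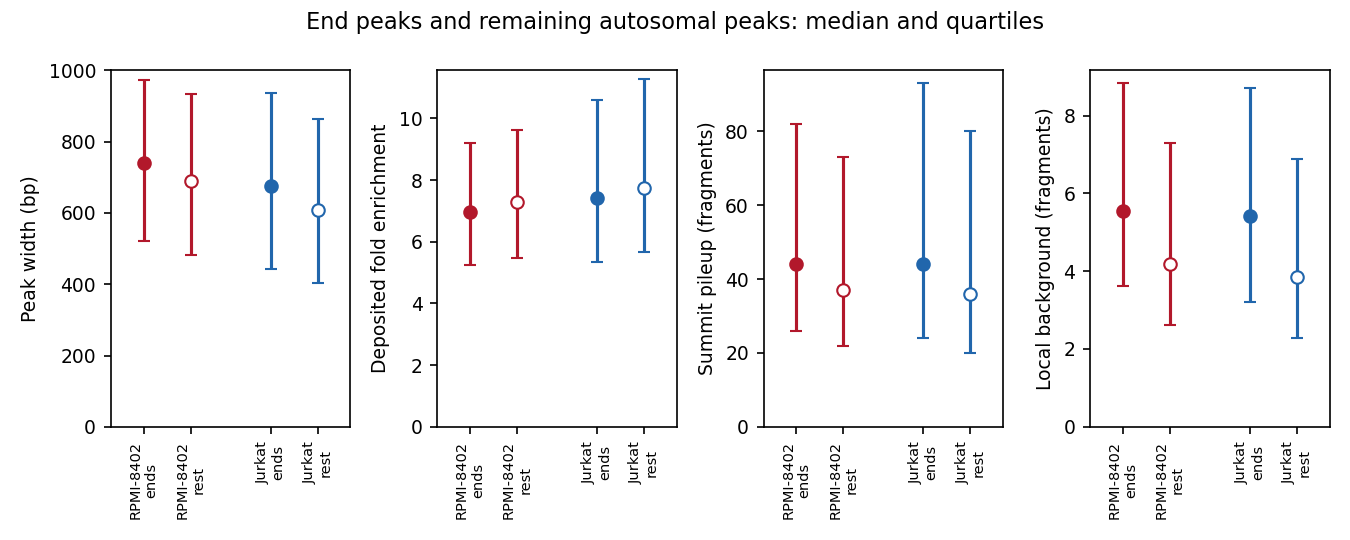
Medians (points) and 25th to 75th percentiles (bars) of peak width in bp, deposited fold enrichment, summit pileup and local background in fragments, for end peaks (filled) and the remaining autosomal peaks (open) in RPMI-8402 and Jurkat. Width, pileup and background had higher medians at the ends in both lines (backgrounds of 5.55 and 5.43 against 4.18 and 3.85), and the fold had lower ones.

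Peaks of at least 1000 bp were more frequent at the ends than elsewhere, with the larger gap in Jurkat. They made up 21.7% of end peaks and 20.2% of the remaining peaks in RPMI-8402, and 19.9% and 14.7% in Jurkat. Peaks of at least 2000 bp were few, 6 at the RPMI-8402 ends and 3 at the Jurkat ends. They were not more frequent at the ends, with 0.338% against 0.453% in RPMI-8402 and 0.147% in both sets of Jurkat. The widest RPMI-8402 end peak, on chromosome 20 at positions 304896 to 308109, spanned 3214 bp with a pileup of 132, and its Jurkat partner spanned 1949 bp with a pileup of 78. Next came chromosome 19, positions 1940544 to 1942690 (2147 bp), and chromosome 8, positions 145016028 to 145018134 (2107 bp). The widest Jurkat end peak, on chromosome 13 at positions 113862397 to 113864620, spanned 2224 bp with a pileup of 117, and its RPMI-8402 partner spanned 1584 bp with a pileup of 47. It was followed by the Jurkat call of the same chromosome 8 region (2023 bp) and by chromosome 19, positions 2474795 to 2476804 (2010 bp). All of these wide regions were called in both lines.

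End peaks of RPMI-8402 had a Jurkat partner more often than its remaining peaks, while Jurkat end peaks and its remaining peaks were shared about equally often. A peak counted as shared when at least 1 bp of it lay in a peak of the other line. In RPMI-8402, 1359 of 1773 end peaks were shared, 76.6% (74.6 to 78.6%, exact binomial interval), against 67.9% of the remaining peaks (67.3 to 68.5%). In Jurkat, 1382 of 2047 end peaks were shared, 67.5% (65.4 to 69.5%), against 67.2% (66.6 to 67.8%). The unshared end peaks numbered 414 in RPMI-8402, 23.4% of its end peaks where 31.4% of all its autosomal peaks were unshared. In Jurkat they numbered 665, 32.5% where 32.8% of all autosomal peaks were unshared, a share at the background. The Jurkat value also changed sign with the setting. The median over autosomes of the difference within each was 4.35 percentage points lower at the Jurkat ends, and 4.72 points higher at the RPMI-8402 ends.

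Sharing rose with peak strength in both sets, so it was compared within 10 classes of −log10 q. RPMI-8402 end peaks had the higher share in 10 of 10 classes. The gap was widest in the third class, with 61.9% (53.8 to 69.6%) of end peaks and 44.8% (42.7 to 46.9%) of the remaining peaks shared. In the strongest class the shares were 98.3% and 98.1%. Jurkat end peaks had the lower share in classes 1 to 6 and the higher one in the other 4. The gap was widest in the fifth class, with 55.6% (48.5 to 62.4%) of end peaks and 63.0% (61.0 to 65.0%) of the remaining peaks shared, and these intervals overlap. In the strongest class the Jurkat shares were 99.1% and 99.0%. With the remaining peaks weighted to the strength classes of the end peaks, their share became 70.1% in RPMI-8402 and 69.4% in Jurkat. The difference of the end peaks to it was 6.55 percentage points (4.56 to 8.55) in RPMI-8402 and −1.88 points (−3.93 to 0.170) in Jurkat, where the interval includes 0.

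**Figure D4:**
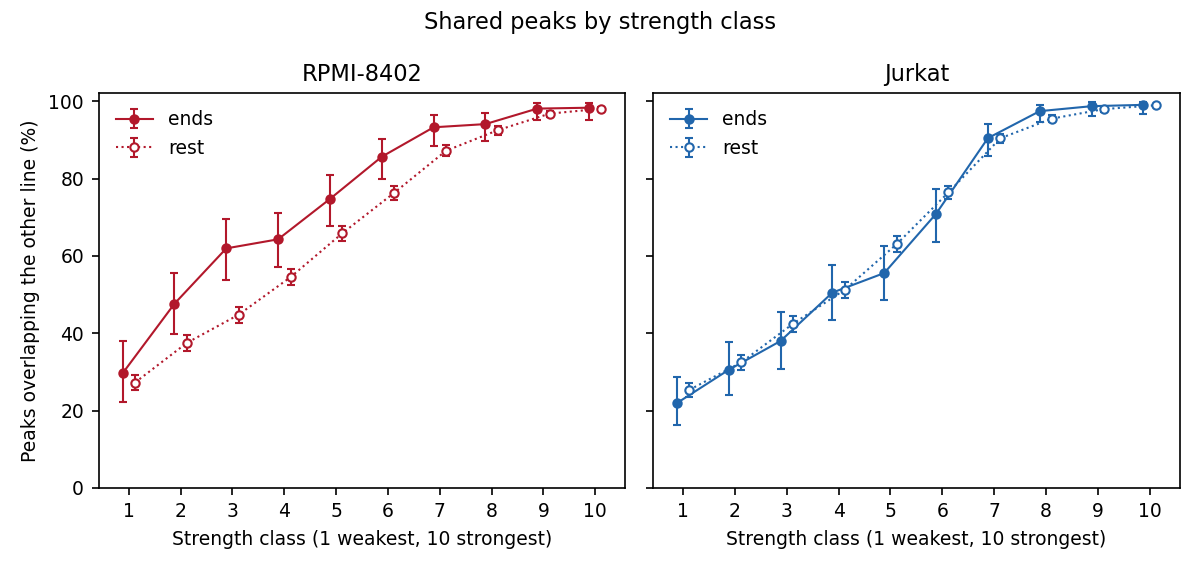
Percent of peaks overlapping a peak of the other line (y axis, bars are 95% exact binomial intervals) in 10 classes of peak strength by −log10 q (x axis) for end peaks (filled) and remaining autosomal peaks (open). RPMI-8402 end peaks lie above the remaining peaks in the weaker classes (61.9% against 44.8% in class 3), and Jurkat end peaks lie below them in classes 1 to 6 (55.6% against 63.0% in class 5).

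The merged lists restate the contrast in sharing by region, from the same peaks, and are no separate result. Shared end peaks were similar in number in the lines (1359 in RPMI-8402 and 1382 in Jurkat). The shares therefore differ mainly through the totals of 1773 and 2047 end peaks. At the ends, 2438 regions were called in either line, 1359 of them in both (55.7%, 53.7 to 57.7%), 414 in RPMI-8402 only (17.0%) and 665 in Jurkat only (27.3%). Elsewhere, 29190 regions were 50.8% in both, 24.0% RPMI-8402 only and 25.2% Jurkat only. The ratio of RPMI-8402-only to Jurkat-only peaks was 0.623 (0.549 to 0.705) at the ends and 0.955 (0.924 to 0.987) elsewhere. Jurkat-only peaks outnumbered RPMI-8402-only peaks at 28 of 39 ends, and the remaining 11 had the reverse. Unshared peaks were weaker than shared ones in both lines, at the ends as elsewhere. The median pileup of unshared end peaks was 24 in RPMI-8402, where shared end peaks had 55, and 22 in Jurkat, where shared end peaks had 72. Unshared peaks elsewhere had medians of 21 and 19. A −log10 q under 10 was found for 51.2% of unshared end peaks and 52.7% of unshared peaks elsewhere in RPMI-8402, and for 55.3% and 56.7% in Jurkat, so the ends lay near the remaining autosomes in this.

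Single ends ranged more widely in sharing than the pooled shares do. At 16p, the end with the alpha-globin genes, 77 of 79 RPMI-8402 peaks were shared (97.5%, 91.2 to 99.7%) and 79 of 97 Jurkat peaks (81.4%, 72.3 to 88.6%). The rest of chromosome 16 also had high shares, 82.1% in RPMI-8402 and 75.4% in Jurkat. At 19q the shares were 84.5% (74.0 to 92.0%) in RPMI-8402 and 90.9% (81.3 to 96.6%) in Jurkat, where the rest of chromosome 19 had 81.2% and 76.6%. The median fold of 19q, 9.04 and 12.2, was the highest of all ends in both lines. The sparse end of 3p had 2 shared peaks, 22.2% of its RPMI-8402 peaks (2.81 to 60.0%) and 18.2% of its Jurkat peaks (2.28 to 51.8%), and the lowest median background of all ends, 3.11 and 1.89 fragments. At 14q, the end with the immunoglobulin heavy chain locus, many peaks were weak, with median pileups of 27 in RPMI-8402 and 28 in Jurkat, where the rest of chromosome 14 had 37 and 39. The end of 9q lay at the other side, with median pileups of 55 in RPMI-8402 and 57 in Jurkat, where the rest of chromosome 9 had 37 and 37.

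Jurkat had more end peaks than RPMI-8402 at most ends, by amounts that differed between ends. The ratio of RPMI-8402 to Jurkat peaks was 0.866 (0.812 to 0.923) at the ends, 0.929 (0.882 to 0.978) at 3 to 10 Mb and 0.976 (0.958 to 0.995) in the remaining autosomal peaks as a whole. It was below 1 at 27 of 39 ends, 1 at 12p and above 1 at 11 ends. The lowest ratios were at 13q with 18 RPMI-8402 and 36 Jurkat peaks (0.5, 0.267 to 0.904), 5p with 35 and 61 (0.574, 0.367 to 0.883) and 7q with 26 and 41 (0.634, 0.372 to 1.06). The intervals of 2q (45 and 67 peaks) and 16q (59 and 87) also lay below 1, 4 ends in all. These intervals treat the numbers of both lines as independent, although most peaks are the same sites in both lists. They therefore do not separate ends that differ between the lines from ends that do not. The highest ratios, at 6p with 27 and 22 peaks (1.23, 0.673 to 2.26), 1q with 44 and 36 (1.22, 0.769 to 1.95) and 4q with 21 and 18 (1.17, 0.592 to 2.32), all had intervals that include 1.

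The ratios just inward of these ends, and over the rest of their chromosomes, varied. At 3 to 10 Mb inward, the ratio was 0.664 (0.495 to 0.886) at 7q and 0.674 (0.478 to 0.946) at 2q, like that of the ends themselves. It was 0.880 (0.573 to 1.35) at 13q and 0.968 (0.566 to 1.65) at 5p, with wide intervals. Outside its end window, chromosome 13 held 402 peaks in RPMI-8402 and 605 in Jurkat (ratio 0.664, 0.584 to 0.755), so Jurkat had more peaks along that chromosome as a whole. The same ratio was 0.926 for chromosome 2, 0.893 for chromosome 7 and 0.876 for chromosome 5. Of the 27 ends with a ratio below 1, 19 also had one below 1 in the neighbouring 3 to 10 Mb, as did 7 of the 12 other ends and 26 of all 39, so the share was close to that over all ends. The 36 Jurkat peaks at the end of 13q included 20 with no RPMI-8402 partner, and the 18 RPMI-8402 peaks included 2 with no Jurkat partner. Shared were thus 44.4% and 88.9%, where the rest of chromosome 13 had 49.6% in Jurkat and 74.4% in RPMI-8402. At the end of 5p, 32 of 61 Jurkat peaks and 6 of 35 RPMI-8402 peaks were unshared. Shared there were 47.5% and 82.9%, where the rest of chromosome 5 had 61.2% and 69.3%. Over all autosomal peaks the shares were 67.2% in Jurkat and 68.6% in RPMI-8402. At 9q, where NOTCH1 lies, 45 of 55 RPMI-8402 peaks and 46 of 68 Jurkat peaks were shared.

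The pileups of shared end peaks went the same way as the numbers. Pairs of exactly 1 peak per line, 1332 at the ends, were compared as log2 of the RPMI-8402 over the Jurkat pileup, with the median of all autosomal pairs set to 0. The median of the end pairs was −0.15 (−0.19 to −0.10). The 14615 pairs elsewhere had a median of 0.01. The median pileup of end pairs was 54 in RPMI-8402 and 73 in Jurkat, and that of pairs elsewhere was 53 and 58. Widths moved alike: end pairs were a median of 807 bp wide in RPMI-8402 and 819 bp in Jurkat, pairs elsewhere 795 and 755 bp. Summits of end pairs lay a median of 70 bp apart and those elsewhere 67 bp. The local background moved with the pileup. Its log2 ratio, likewise centred on all autosomal pairs, had a median of −0.16 in end pairs and 0.01 elsewhere. On the deposited fold, in which the background is divided out, the centred median of end pairs was −0.0176.

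Large differences between paired peaks leaned towards Jurkat at the ends. At least 2-fold higher in RPMI-8402 were 83 end pairs, 6.23% (4.99 to 7.67%), where 9.11% of all autosomal pairs were. At least 2-fold higher in Jurkat were 104 end pairs, 7.81% (6.42 to 9.38%), where 4.97% of all autosomal pairs were. The median log2 ratio was below 0 at 25 of 39 ends and below that of the rest of the same chromosome at 26. Among ends with at least 10 pairs it was lowest at 2p (−0.76 over 24 pairs), 13q (−0.69 over 16) and 18p (−0.65 over 15), and highest at 20q (0.42 over 49). The rest of chromosomes 13 and 20 had medians of −0.61 and 0.37, close to those of their ends, whereas the rest of chromosome 2 had −0.07. The end of 3p had 0.87, from 2 pairs only. Across the 39 ends, the median pair ratio followed the ratio of peak numbers (both log2) with r = 0.47 (Pearson) and rho = 0.53 (Spearman). Both are made from the same pileups, so part of this relation is built in.

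**Figure D5:**
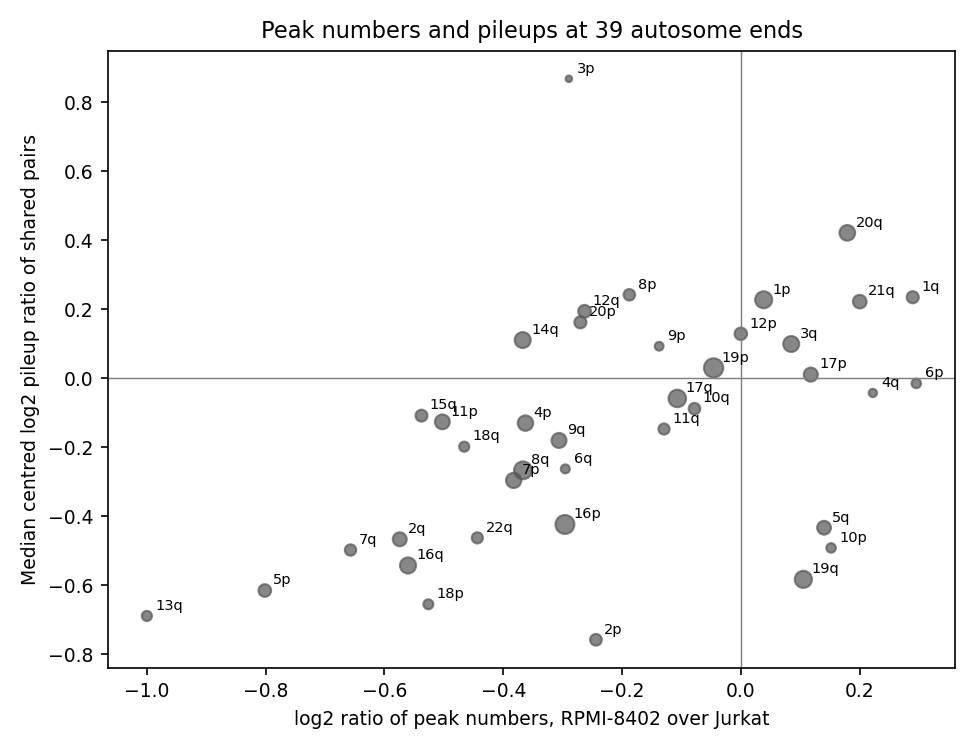
For each of the 39 ends (p short arm, q long arm), the log2 ratio of peak numbers (x axis) and the median centred log2 pileup ratio of shared pairs (y axis), both RPMI-8402 over Jurkat, with point area growing with the number of pairs. The end of 13q lies lowest on the x axis with a y value of −0.69, and 3p, at 0.87, rests on 2 pairs.

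The pair that differed most in favour of RPMI-8402 lay at the end of 12q, at positions 133656652 to 133657726, where a peak of 1075 bp and a pileup of 182 faced a Jurkat peak of 396 bp and a pileup of 10. After it came chromosome 8, positions 2262905 to 2263488, with pileups of 178 in RPMI-8402 and 25 in Jurkat, a centred ratio of 8.04 (5.27 to 12.8). Chromosome 1, positions 248069417 to 248070230, had pileups of 93 and 16, which is 6.56-fold higher after centring (3.84 to 11.95). Among pairs higher in Jurkat, 18p held 2 of the 3 pairs that differed most. Its RPMI-8402 peaks at positions 681652 to 682312 and 711905 to 712918 had pileups of 31 and 30, where the Jurkat partners had 179 and 144, centred ratios of 0.196 (0.129 to 0.287) and 0.235 (0.153 to 0.350). At 13q, positions 113344080 to 113344795, the pileups were 33 and 170, a ratio of 0.219 (0.146 to 0.320). In each of these pairs the line with the higher pileup also had the wider peak.

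Of the unshared end peaks at least as wide as the line's median, the strongest in RPMI-8402 was on chromosome 1, positions 567263 to 568045, with a pileup of 7556 and a 26.6-fold enrichment. Its local background was 283 fragments, 145 times the genome-wide value, and it stood far apart from every other unshared end peak. The sources used here give no read filters. Whether its fragments come from this site alone was not tested, so it is not read as a site open in RPMI-8402 only. The next on chromosome 19, positions 57049680 to 57050697, reached a pileup of 129 (108 to 153) and no Jurkat peak within 55785 bp, and that on chromosome 2, positions 2060410 to 2061595, one of 122 (101 to 146) and none within 60252 bp. In Jurkat the strongest was at 18p, with a pileup of 219 and its nearest RPMI-8402 peak 14035 bp away. After it, chromosome 11, positions 1410457 to 1411327, reached 169 fragments (144 to 196) and no RPMI-8402 peak within 79075 bp. The third lay at 13q, positions 114102976 to 114104231, where 160 fragments (136 to 187) were counted and no RPMI-8402 peak came within 40249 bp. Thus 13q and 18p supplied both unshared and paired peaks that were higher in Jurkat.

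The end peaks with the highest fold included sites close to the ends of 10q and, in Jurkat, 4q. In RPMI-8402 the highest fold, 26.6, belonged to the unshared chromosome 1 peak at positions 567263 to 568045 described above. On chromosome 8, positions 145447642 to 145448143, at a summit 853390 bp from the last peak end, RPMI-8402 had 24.2-fold and Jurkat 29.9-fold, the second highest in both lines. On chromosome 10 the summit was 10142 bp from the last peak end, with a 24.0-fold enrichment in RPMI-8402 (positions 135490682 to 135491484), the third highest there, and 33.0-fold in Jurkat, the highest there. On chromosome 4 it was 73209 bp from the last peak end in RPMI-8402 (positions 190970485 to 190971130), with a 19.3-fold enrichment that is not among the 3 highest of that line, and 23.4-fold in Jurkat, the third highest there. The outermost peak of 10q also had high pileups in both lines, 357 in RPMI-8402 and 531 in Jurkat. D4Z4 sequence is near-identical at 4q and 10q. Whether these peaks lie in it was not analysed here, and fragments from sequence found at both ends cannot be told apart. Pileups of 300 or more occurred at 8 of 1773 RPMI-8402 and 16 of 2047 Jurkat end peaks. Among the remaining autosomal peaks they occurred at 94 of 21856 in RPMI-8402 and 222 of 22390 in Jurkat. The shares were thus close in RPMI-8402 and lower at the ends in Jurkat. The highest shared end peaks, at 18p from position 107858, had pileups of 2480 in RPMI-8402 and 4299 in Jurkat over local backgrounds 170 and 321 times the genome-wide value. Whether their fragments come from that site alone was not tested either, so they are not read as a site open in both lines.

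Peaks also crowded into short stretches of some ends. Over both lines, the 100-kb bin with the most peaks was the last of chromosome 19, with 9 RPMI-8402 and 10 Jurkat peaks, of which 9 and 9 were shared. The last 100 kb of chromosome 5 held 7 and 11 peaks, with 7 and 8 shared, and the bin at 700 to 800 kb of 16p also held 7 and 11, with 7 and 8 shared. In these bins of chromosomes 5 and 16 every RPMI-8402 peak was shared, and 3 of the 11 Jurkat peaks were not. Of the 1170 end bins, 294 had no peak in either line, 82 had RPMI-8402 peaks only and 119 Jurkat peaks only. The split by line was not made for bins of the remaining span, so it is not read as particular to the ends.

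The outermost peak of an end was often a different one in the lines. The outermost peaks overlapped at 17 of 39 ends. They were shared with some peak of the other line at 28 of 39 ends in RPMI-8402 and 22 of 39 in Jurkat. Where the outermost peaks of an end do not overlap, the one farther out has no peak of the other line to meet. The counts of shared outermost peaks are therefore in part fixed by how these peaks were chosen. Of all end peaks, 76.6% were shared in RPMI-8402 and 67.5% in Jurkat, shares to which the outermost peaks cannot fairly be compared. On short arms the first summit lay between 11207 and 344694 bp from position 1 in RPMI-8402 (median 74189) and between 18799 and 396294 bp in Jurkat (median 74148). The farthest in was at 19p in RPMI-8402 and at 3p in Jurkat. The outermost RPMI-8402 peaks were a median of 668 bp wide and the Jurkat ones 456 bp, both below the medians of 741 and 676 bp over all end peaks.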

How the data were processed

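Each library has a deposited list of peaks in 10 columns on hg19. The submitters' processing notes name Bowtie2, Picard, SAMtools and MACS2 2.1.1.2016030 but not how each was run, and the sources used here give no read filters. Peaks were called per library, per the file headers and labels, and none were pooled. For each peak the authors deposited a fold enrichment (a ratio), −log10 p and −log10 q values, a score, which is 10 times the −log10 p-value cut to a whole number, and the summit's offset in bp. These values are the authors' own. Summit pileup and local background were solved here from fold and p, as MACS2 is known to compute them. The solved pileup was whole within 0.01 in 100% of peaks off the mitochondrial genome. Overlaps were computed with scipy 1.17.1, pandas 2.3.3 and numpy 2.4.6 under Python 3.11.15 and checked with bedtools 2.31.1, and the scripts were tested on simulated data.

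The end peaks, comparisons and regions were chosen with earlier results of these data known. Regions named are the 3 highest or lowest by each measure, by written rules, with ties in genomic order; single ends, the peaks of pileup 300 or more and the counts per end were named after their values were seen. Alternatives covered the window, peak strength, overlap, the set compared with and the scaling. The reference tables at hand are on another build and were not used.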

Additional observations from a re-analysis of the deposited data

Results flagged for a closer look

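Sharing at the ends, set against remaining peaks of the same strength classes, gave values of opposite sign in the lines, of which the Jurkat one cannot be told from 0 by counting error. End peaks were 6.55 percentage points (4.56 to 8.55) more often shared in RPMI-8402, and the difference in Jurkat was −1.88 points (−3.93 to 0.170). The difference between the lines was not tested. The long-arm end of chromosome X, which the autosomal comparison leaves out, held 60 RPMI-8402 and 56 Jurkat peaks within 3 Mb, of which 44 and 44 were shared. Its short-arm end held 2 and 1 peaks, with 0 shared.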

How the results depend on the processing

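Of 75 alternative values, 43 stayed within the counting interval of the reported one (counts within 1.5 times), 26 moved and 6 changed sign. With windows of 1 Mb, the end peaks numbered 753 in RPMI-8402 and 859 in Jurkat, and the density ratios were 2.33 and 2.57. The fold differences were then −0.12 (−0.398 to 0.158) in RPMI-8402 and −0.0982 (−0.415 to 0.218) in Jurkat, and both intervals include 0. The Jurkat difference in shared percent was 2.60 points. With windows of 5 Mb, RPMI-8402 had 2669 end peaks, the density ratios were 1.70 and 1.89 and the Jurkat shared difference was −0.496 points. The changed window itself sets these peak numbers. At −log10 q of at least 10, the RPMI-8402 density ratio was 1.97 and its width difference 31 bp, and the fold differences were −0.611 in RPMI-8402 and −0.634 in Jurkat. Against peaks at 3 to 10 Mb, the density ratios were 1.48 and 1.58, the fold differences 0.0765 and −0.0775, and the RPMI-8402 shared difference 6.34 points. As a median over autosomes, the density ratios were 1.65 and 1.92, the shared differences 4.72 and −4.35 points, and the Jurkat width difference 38 bp. In 100-kb bins with a peak, the density ratios were 1.37 and 1.54. The Jurkat shared difference was −0.212 points where 50% of each peak had to overlap, −0.0374 where the summit had to lie in the other line's peak, and −1.88 with strength classes matched (an interval that includes 0), where RPMI-8402 had 6.55. The median log2 pair ratio was −0.62 when scaled by the genome background and −0.0176 on the deposited fold. Scaling by the genome background shifts all autosomal pairs by the same amount and no longer sets their median to 0. It therefore leaves the gap between end pairs and pairs elsewhere unchanged. For the other moved values the cause was not tested. Without peaks of pileup 300 or more, none of the 12 values moved. No paired analysis was possible because the lines have a single library each, and no replicate could be left out. Depth limits what an absent peak shows near the lowest called pileups of 10 in RPMI-8402 and 9 in Jurkat.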
